A study of Mus musculus with 13 samples.

Results

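Integrins and laminins were followed in mouse liver tumours treated with an siRNA against Yap. The 35 genes described are gene symbols in the deposited tables that name an integrin alpha chain (17 genes), an integrin beta chain (8), or a laminin alpha (5), beta (3) or gamma chain (2). They were taken out of 23361 symbols by a pattern in their names, though the families were chosen with earlier results of these data known. Itgam, whose estimate failed in 1 library, and 4 symbols of related but different proteins (Itgb1bp1, Itgb1bp2, Itgb2l and Itgb3bp) match the pattern and were left out.

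Integrins are cell surface receptors made of an alpha and a beta chain. They bind matrix proteins or other cells outside and couple to the actin cytoskeleton inside through talin, kindlin and the Ilk complex. Laminins are cross-shaped secreted trimers of an alpha, a beta and a gamma chain, and they form the backbone of basement membranes, the sheets that underlie epithelia and surround vessels. In the liver, laminin-rich basement membranes lie around bile ducts and larger vessels, while the hepatocyte facing the sinusoid has little of them. Yap is a transcriptional co-activator held in check by the kinases Mst1 and Mst2, and adhesion to matrix is one of the inputs that act on it.

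Both groups were liver tumours (hepatocellular carcinoma) of Mst1-/-; Mst2Flox/Flox mice on a mixed C57BL/6 and 129Sv background, in which an adenovirus carrying Cre had removed Mst2 in the liver. The siYap group (5 libraries) had received siYap-LNPs, lipid nanoparticles with an siRNA against Yap, for 9 days. The siLuc group (8 libraries) had received siLuciferase-LNPs, whose siRNA has no mouse target, for the same time. Both groups carried both deletions, and the comparison holds no normal liver and no tumour with intact Mst genes. Age is not given in the labels.

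Bulk tumour RNA was read at 23637018 to 37043914 estimated fragments per library. Yap1 averaged 3.29 ± 0.845 FPKM in siYap and 9.999 ± 1.37 FPKM in siLuc, where ± is the SD over 5 siYap and 8 siLuc libraries here and for every FPKM mean. The groups did not overlap (log2 fold change -1.58 ± 0.17, adjusted p = 2.36e-05, where ± is the SE here and for every log2 fold change, with p-values from edgeR's quasi-likelihood test and Benjamini-Hochberg adjustment). Stk3, the gene of Mst2, averaged 5.22 ± 1.32 FPKM in siYap and 6.12 ± 0.619 FPKM in siLuc, a value over the whole gene that does not check its floxed part, and Stk4, the gene of Mst1, was at 0.044 ± 0.019 FPKM in siYap and 0.053 ± 0.026 FPKM in siLuc. The 8 hepatocyte markers looked at were above 0 in every library. Tat rose, Fgb and Cps1 fell and 5 did not pass, against 16.0% of all tested genes higher and 14.8% lower. The summed level of the 8 was 11094 to 18336 FPKM in siYap and 15412 to 24695 FPKM in siLuc. FPKM are fragments scaled to transcript length and library size, so that levels of different genes can be set side by side. The siYap replicates 1 and 3 stood apart, with the lowest totals and with 1160 and 1882 CPM (counts scaled to a common library size) on the ribosomal precursor Rn45s, against 479 to 812 in the other 11 libraries. Of the 35 integrin and laminin genes, 30 had their highest siYap value in 1 of these libraries. For some results the fit without both is also given, and a result printed without that fit may still rest on them. In bulk RNA, fewer cells of a type and less RNA per cell cannot be told apart. The labels tie no library to an animal, so a p-value here reflects how far these libraries differ among themselves, which may be partly technical.

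The promoter table used here (RefSeq, build GRCm38.p6, 250 bases before to 50 after a start in that annotation) held 22 of the 35 genes. Such a start can differ from the gene coordinates given below, and the Lama2 and Itgb8 windows lie wholly inside those coordinates. Promoters of 3 genes that fell with Yap siRNA (Lamb2, Lama5 and Itgb8) and of 1 that rose (Lama2) are printed so that their sequence can be read beside the values, 5′ to 3′ on the strand of the gene. Capitals mark the GC box GGGCGG or its complement CCGCCC. The Lamb2 window is chr9:108479612-108479911 (plus strand), that of Lama5 chr2:180225810-180226109 (minus strand), that of Itgb8 chr12:119238227-119238526 (minus strand) and that of Lama2 chr10:27616893-27617192 (minus strand).
Lamb2: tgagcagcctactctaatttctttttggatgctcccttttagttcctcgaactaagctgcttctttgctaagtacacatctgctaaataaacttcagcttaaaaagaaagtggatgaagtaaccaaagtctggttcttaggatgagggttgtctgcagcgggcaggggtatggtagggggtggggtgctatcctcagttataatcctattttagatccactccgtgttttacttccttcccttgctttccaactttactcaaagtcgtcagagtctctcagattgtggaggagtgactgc
Lama5: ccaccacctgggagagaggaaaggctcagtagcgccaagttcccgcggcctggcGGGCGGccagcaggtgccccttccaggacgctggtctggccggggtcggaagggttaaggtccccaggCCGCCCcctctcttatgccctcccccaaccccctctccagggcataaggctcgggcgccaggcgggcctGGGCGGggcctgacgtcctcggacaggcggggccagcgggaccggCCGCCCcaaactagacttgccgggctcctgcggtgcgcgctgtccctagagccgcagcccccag
Itgb8: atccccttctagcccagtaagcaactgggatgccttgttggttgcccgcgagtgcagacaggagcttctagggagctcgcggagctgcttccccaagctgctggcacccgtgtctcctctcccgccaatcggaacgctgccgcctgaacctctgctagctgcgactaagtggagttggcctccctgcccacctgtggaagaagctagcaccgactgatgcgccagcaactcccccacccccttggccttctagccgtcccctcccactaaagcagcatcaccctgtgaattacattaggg
Lama2: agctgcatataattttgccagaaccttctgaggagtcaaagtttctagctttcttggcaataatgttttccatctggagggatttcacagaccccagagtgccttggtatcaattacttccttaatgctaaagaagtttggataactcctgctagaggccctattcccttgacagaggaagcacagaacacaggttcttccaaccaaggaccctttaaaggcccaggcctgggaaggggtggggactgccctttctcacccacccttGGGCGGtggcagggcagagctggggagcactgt
The Lama5 window held 4 GC boxes and was 72.7% G and C, and the Lama2 window held 1 and was 50.3% G and C. The Lamb2 and Itgb8 windows had no match to the GC box and were 44.0% and 60.7% G and C. Each motif below was searched on both strands, and matches of different motifs could overlap. GGAATG, the core that Tead factors (the DNA-binding partners of Yap) recognise, was in 3 of the 25 member promoters and in 14.7% of all 32851 promoters. TGANTCA, the AP-1 motif, was in 3 of the 25 and in 7.81% of all. GGGCGG was in 11 of the 25 and in 35.7% of all. None of the 5 called genes with a promoter in the table (the 4 above and Itga2b) had GGAATG or TGANTCA in its window.

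Integrin chains led the order of levels among the 35 genes. Itgb1, the beta chain shared by most matrix-binding integrins, was the highest, at 99.9 ± 8.94 FPKM in siYap and 91.99 ± 18.2 FPKM in siLuc. Its libraries held 108, 101, 84.6, 102 and 103 FPKM in siYap replicates 1 to 5, and 64.1 to 120.2 FPKM (median 91.2) in siLuc, with the groups overlapping. It was followed by Itgb5 at 32.8 ± 4.85 FPKM in siYap and 40.3 ± 6.55 FPKM in siLuc, the alpha chain Itgav at 20.6 ± 4.86 FPKM in siYap and 28.3 ± 8.16 FPKM in siLuc, and Itga1, an alpha chain that binds collagen, at 20.1 ± 3.999 FPKM in siYap and 17.8 ± 2.85 FPKM in siLuc. The difference missed the threshold of an adjusted p of 0.05 for each of these 4 (log2 fold change 0.11 ± 0.14, adjusted p = 0.580 for Itgb1; log2 fold change -0.24 ± 0.14, adjusted p = 0.224 for Itgb5; log2 fold change 0.17 ± 0.14, adjusted p = 0.391 for Itga1). Itgav, the partner of several beta chains in receptors for vitronectin and latent TGF-beta, held 26.95, 20.2, 14.7, 17.4 and 23.6 FPKM in siYap replicates 1 to 5, against 19.8 to 44.1 FPKM (median 26.6) in siLuc. Its lower siYap values missed the threshold narrowly (log2 fold change -0.47 ± 0.17, adjusted p = 0.0518), and it passed without siLuc replicate 2 (0.0440), 4 (0.0480) or 7 (0.0344) or siYap replicate 5 (0.0424). Itgav also passed with DESeq2's Wald test (0.0333) and with upper-quartile scaling (0.0468). With the first digit of the file codes, which may mark a batch, as a term, the adjusted p was 0.0110. In 17 of the 24 alternatives that gave a value it did not pass. The 12 alpha chains that pair with Itgb1 summed to 67.7 to 104.9 FPKM in siYap and 77.2 to 108.6 FPKM in siLuc. At the low end, Itgb4, Itgb6, Itga10, Itga11 and Itgad had group means of at most 0.374 FPKM.

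**Figure D1:**
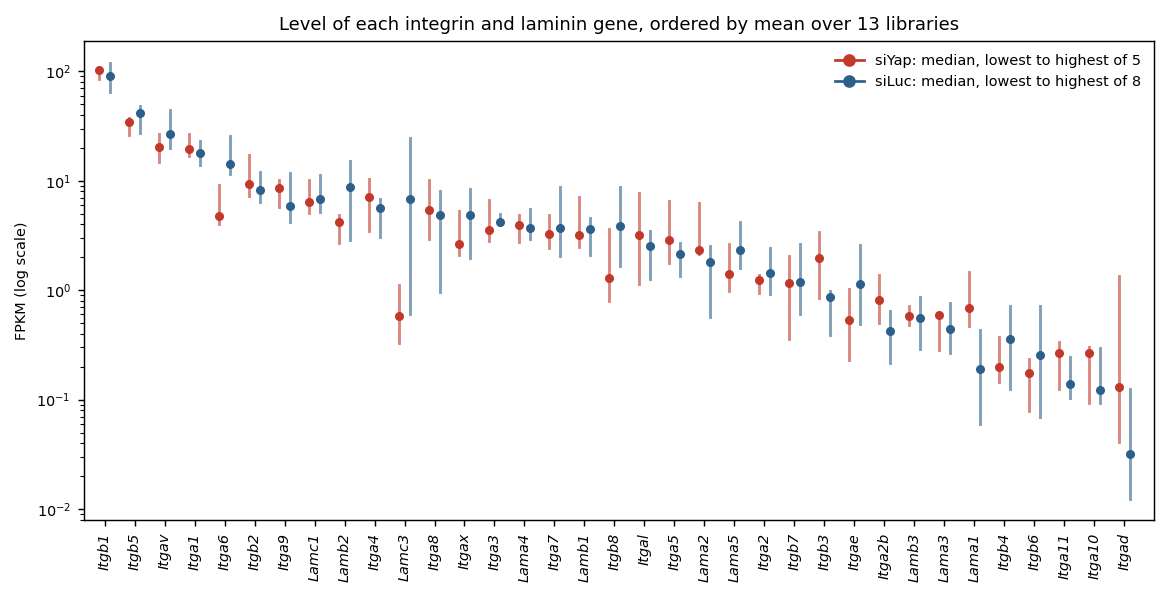
Level of each of the 35 genes in FPKM on a log axis, ordered by the mean over 13 libraries; dots are group medians and lines run from the lowest to the highest library, siYap in red left of siLuc in blue. Itgb1 leads at about 95.0 FPKM over all libraries, Itga6 and Lama1 have red and blue ranges that do not touch, and Lamc3 has the widest siLuc range.

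Of the 35 genes, all of which passed the filter on low counts, 11 differed between siYap and siLuc tumours. Against 30.8% of all 15132 tested genes, that is 31.4%. Higher in siYap were 5 (14.3%, against 16.0% of all genes), namely Itgb3, Itga2b, Itgad, Lama1 and Lama2. Lower were 6 (17.1%, against 14.8% of all genes), namely Itga6, Itgb8, Itgae, Lama5, Lamb2 and Lamc3. The families as a whole were thus called about as often as any gene, and their median log2 fold change was 0.10, against -0.00 for all tested genes. Of the 25 integrins 6 were called and of the 10 laminins 5. The groups did not overlap in FPKM for Itga6 (all siYap libraries below all siLuc libraries, as for 5.66% of tested genes) and Lama1 (all above, as for 5.57%). The calls of Itga6, Itgb3 and Lama1 held under every alternative that gave a value for them, listed at the end. Without siYap replicates 1 and 3 together, 4 were higher and 6 lower, and the call of Lama2 ended (adjusted p = 0.287). Calls over all genes fell too in that fit, to 1512 of 15395 higher and 1472 lower, from 2422 and 2246 of 15132. Without siYap replicate 2 alone, 8 were higher and 3 lower. Without siYap replicate 4, 3 were lower, and without siLuc replicate 5, 3 were higher. Over all genes, the fit without siYap replicate 2 called 2313 of 15280 higher and 2069 lower. The fit without siYap replicate 4 called 2027 of 15304 lower, and that without siLuc replicate 5 called 2249 of 15057 higher. The file names carry a number that some libraries share and that may mark the animal, which the labels do not say. With counts summed per number, 6 were higher and 5 lower, and the calls of Itgae (0.0545) and Lama2 (0.102) ended. Over all genes, 1901 of 15623 were then higher and 1892 lower.

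**Figure D2:**
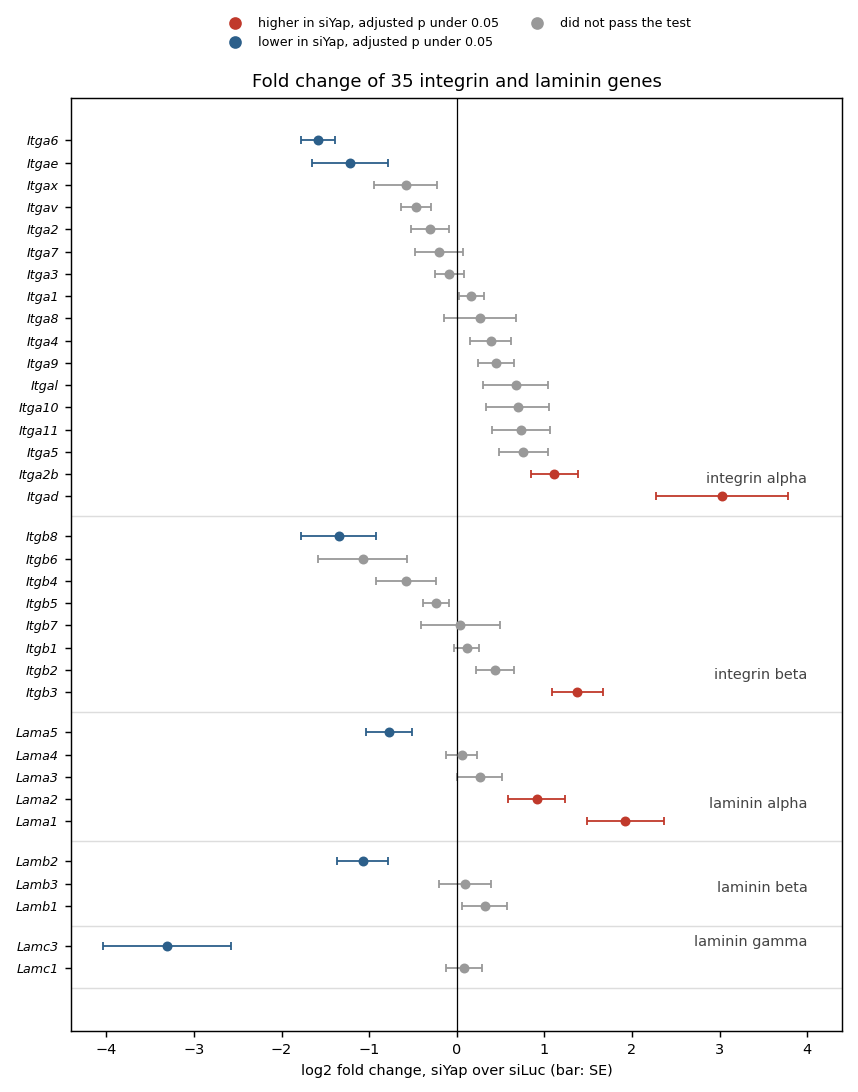
Log2 fold change of siYap over siLuc with its SE for the 35 genes, grouped by chain type; red genes were higher, blue genes lower and grey genes did not pass the test. Lamc3 lies farthest to the left, at -3.31, and Itgad farthest to the right, at 3.02.

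Itga6 had the smallest adjusted p of the 35 genes. It encodes the alpha chain of the main epithelial laminin receptors, in which it pairs with Itgb1 or Itgb4 (chromosome 2, 71745616 to 71858416, plus strand). Itga6 stood at 9.06, 4.81, 4.91, 4.06 and 4.12 FPKM in siYap replicates 1 to 5, and 11.5 to 25.8 FPKM (median 14.2) in siLuc. Every siYap library lay below every siLuc library, and siYap replicate 1 was the highest of its group. The mean was 5.39 ± 2.09 FPKM in siYap and 15.8 ± 4.64 FPKM in siLuc, which is 2.94-fold lower in siYap (log2 fold change -1.59 ± 0.19, adjusted p = 4.69e-05; two-sided exact permutation p = 0.000777, the smallest that 5 against 8 libraries allow). The file codes begin with a digit (6, 7 or 8) that may mark a batch, and the log2 differences within a digit were -1.54, -1.70 and -1.68 in digits 6, 7 and 8. Digit 8 held only siYap replicate 5 and siLuc replicate 8, so each digit 8 difference compares 1 library with 1. Itgb4, its partner in the hemidesmosome, was low in both groups, at 0.241 ± 0.098 FPKM in siYap and 0.374 ± 0.169 FPKM in siLuc, and did not pass (log2 fold change -0.58 ± 0.34, adjusted p = 0.212). The share of integrin alpha chain FPKM taken by Itga6 was 4.79% to 7.90% in siYap and 13.3% to 22.2% in siLuc.

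Itgb8, which pairs with Itgav in a receptor that binds and activates latent TGF-beta, was lower in most siYap tumours (chromosome 12, 119158022 to 119238802, minus strand). Its siYap libraries held 3.61, 1.29, 0.929, 0.789 and 1.65 FPKM in siYap replicates 1 to 5, and 1.65 to 8.84 FPKM (median 3.83) in siLuc. The groups overlapped through siYap replicate 1, which was above siLuc replicates 1, 5 and 7, while the other 4 siYap libraries lay below all siLuc libraries, replicate 5 only just. The group means were 1.65 ± 1.14 FPKM in siYap and 4.25 ± 2.20 FPKM in siLuc (log2 fold change -1.35 ± 0.43, adjusted p = 0.0273, exact permutation p = 0.00777). Leaving out any 1 of siYap replicates 2 to 5 ended the call (0.0517 to 0.0783), and within the file code digits the differences were -0.15, -2.15 and -2.40 in digits 6, 7 and 8. Among the TGF-beta ligands, Tgfb1, whose latent form binds this receptor, rose, while Tgfb2 fell (values below).

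Itgae pairs with Itgb7 on lymphocytes that sit within epithelia, where it binds E-cadherin (chromosome 11, 73090583 to 73147446, plus strand). Fragments were few (31 to 390 per library). Itgae held 1.02, 0.231, 0.538, 0.406 and 0.560 FPKM in siYap replicates 1 to 5, and 0.488 to 2.56 FPKM (median 1.15) in siLuc. The siYap replicate 1 was above siLuc replicates 1, 2 and 8, and siLuc replicates 3 and 5 were the highest. The means were 0.551 ± 0.293 FPKM in siYap and 1.39 ± 0.765 FPKM in siLuc (log2 fold change -1.22 ± 0.44, adjusted p = 0.0460, exact permutation p = 0.0202), and leaving out a single library ended the call for siYap replicates 2 to 5 and siLuc replicates 3 to 7 (0.0501 to 0.105). Without siYap replicates 1 and 3 together the log2 fold change was -1.81 (adjusted p = 0.0228). Differences within the digits were -0.31, -1.82 and -0.69 in digits 6, 7 and 8. Of the 9 markers of T and NK cells tested, Cd3g fell and 8 did not pass, against 14.8% of all tested genes lower. The summed level of these markers was 4.46 to 13.5 FPKM in siYap and 4.52 to 27.5 FPKM in siLuc, with no marker at 0. Their part in the Itgae result was not tested.

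Itgb3 and Itga2b were both called higher. Itgb3 pairs with Itga2b in the platelet receptor for fibrinogen and with Itgav on endothelium and other cells (chromosome 11, 104608000 to 104670476, plus strand). Itgb3 held 2.35, 0.849, 1.96, 1.53 and 3.42 FPKM in siYap replicates 1 to 5, and 0.387 to 0.987 FPKM (median 0.872) in siLuc. The siYap replicate 2 lay within the siLuc range and the other 4 siYap libraries lay above it. The means were 2.02 ± 0.959 FPKM in siYap and 0.811 ± 0.197 FPKM in siLuc, 2.49-fold higher in siYap (log2 fold change 1.37 ± 0.29, adjusted p = 0.00292, exact permutation p = 0.00389), and within the digits the differences were 0.83, 0.96 and 3.12 in digits 6, 7 and 8. The digit 8 value sets the highest siYap library (replicate 5) against the lowest siLuc library (replicate 8). Itga2b (chromosome 11, 102453297 to 102470122, minus strand) was under 1 FPKM on average in both groups, with 31 to 157 fragments per library. It held 0.753, 0.502, 0.812, 0.929 and 1.39 FPKM in siYap replicates 1 to 5, against 0.216 to 0.644 FPKM (median 0.424) in siLuc. The groups overlapped, since siYap replicate 2 was below siLuc replicate 5 (log2 fold change 1.11 ± 0.27, adjusted p = 0.00679). Of the 7 platelet markers looked at, 3 were tested, 1 of them (Ppbp) rose and 2 did not pass, against 16.0% of all tested genes higher. The summed level of the list was 10.1 to 15.5 FPKM in siYap and 3.99 to 12.8 FPKM in siLuc, and Gp9, Gp1bb and Gp6 were at 0 in at least 1 library. What these markers contribute to Itgb3 and Itga2b was not tested. Among the 23 textbook pairs that can be formed from these chains, Itga2b with Itgb3 was the 1 pair with both chains called, in 6 pairs 1 chain was called, and in 16 neither was.

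Itgad, a leukocyte alpha chain that pairs with Itgb2, was called higher on the strength of 1 library (chromosome 7, 128154376 to 128223816, plus strand). It had 0.131, 1.35, 0.041, 0.080 and 0.182 FPKM in siYap replicates 1 to 5, and 0.012 to 0.125 FPKM (median 0.032) in siLuc. In fragments, siYap replicate 2 held 187 and every other library between 2 and 24. The fitted difference (log2 fold change 3.02 ± 0.75, adjusted p = 0.00780) dropped to 1.38 without siYap replicate 2, and the call ended (adjusted p = 0.0883). Differences within the digits were 3.86, 0.10 and 2.62 in digits 6, 7 and 8. Its exons share 8.60% of their bases with 4931431B13Rik and 1.55% with Cox6a2, both on the opposite strand, 7.32% with the pseudogene Gm17831 on the same strand and 2.26% with the antisense gene Gm39091. Whether the authors counted by strand is not given in the sources used here. Of the other leukocyte chains, Itgb2 was at 11.2 ± 3.99 FPKM in siYap and 8.55 ± 1.93 FPKM in siLuc, Itgal at 3.68 ± 2.47 FPKM in siYap and 2.41 ± 0.881 FPKM in siLuc, Itgax at 3.31 ± 1.33 FPKM in siYap and 5.16 ± 2.38 FPKM in siLuc, Itga4 at 6.93 ± 2.44 FPKM in siYap and 5.19 ± 1.48 FPKM in siLuc and Itgb7 at 1.28 ± 0.679 FPKM in siYap and 1.35 ± 0.762 FPKM in siLuc. These 5 did not pass the test (adjusted p of 0.139 to 0.956). Against 16.0% of all tested genes higher and 14.8% lower, 2 of 5 pan-leukocyte markers fell (Cd52 and Cd53), and of the macrophage and Kupffer cell markers 3 of 7 (Emr1, Clec4f and Csf1r). Of 6 neutrophil markers 5 rose, with a summed level of 156 to 1151 FPKM in siYap and 36.5 to 189 FPKM in siLuc. The summed levels were 67.3 to 139 FPKM in siYap and 86.4 to 211 FPKM in siLuc for the pan-leukocyte list, and 22.6 to 49.8 FPKM in siYap and 44.9 to 128 FPKM in siLuc for the macrophage list. Elane was at 0 in at least 1 library and no marker of the pan-leukocyte and macrophage lists was. Of 6 dendritic cell markers Zbtb46 rose and Cd209a fell, at a summed 5.60 to 11.5 FPKM in siYap and 3.42 to 10.03 FPKM in siLuc with Ccr7 at 0 in at least 1 library, and none of the 3 tested B cell markers passed. Their part in these integrin values was not tested.

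The remaining integrin chains did not pass the test. Itga5, the alpha chain of the main fibronectin receptor, came closest on the side of higher siYap values, at 3.45 ± 1.89 FPKM in siYap and 2.13 ± 0.477 FPKM in siLuc (log2 fold change 0.76 ± 0.28, adjusted p = 0.0508). It held 3.81, 2.25, 6.53, 1.76 and 2.90 FPKM in siYap replicates 1 to 5, against 1.36 to 2.71 FPKM in siLuc. The highest siYap values were thus those of replicates 1 and 3, and replicates 2 and 4 lay within the siLuc range. A fit of Itga5 without replicates 1 and 3 is not given here. Itga9, a receptor chain for tenascin and osteopontin, was at 8.59 ± 1.80 FPKM in siYap and 6.52 ± 2.26 FPKM in siLuc, and Itga8, which binds nephronectin, at 5.83 ± 2.77 FPKM in siYap and 4.88 ± 2.39 FPKM in siLuc. Itga3 and Itga7, the other laminin-binding alpha chains, were at 4.02 ± 1.52 FPKM in siYap and 4.33 ± 0.362 FPKM in siLuc and at 3.46 ± 0.911 FPKM in siYap and 4.06 ± 2.07 FPKM in siLuc. The collagen-binding chains Itga2, Itga10 and Itga11 were at 1.19 ± 0.166 FPKM in siYap and 1.48 ± 0.474 FPKM in siLuc, at 0.227 ± 0.082 FPKM in siYap and 0.144 ± 0.067 FPKM in siLuc and at 0.245 ± 0.091 FPKM in siYap and 0.155 ± 0.051 FPKM in siLuc. Itgb6, an epithelial partner of Itgav, was at 0.175 ± 0.062 FPKM in siYap and 0.370 ± 0.252 FPKM in siLuc. For Itga2, Itga3, Itga7, Itga8, Itga9, Itga10, Itga11 and Itgb6 the adjusted p ran from 0.103 to 0.726. Exons of other genes cover 33.5% of the exon bases of Itga10 and 8.04% of those of Itga4, so their counts are uncertain.

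**Figure D3:**
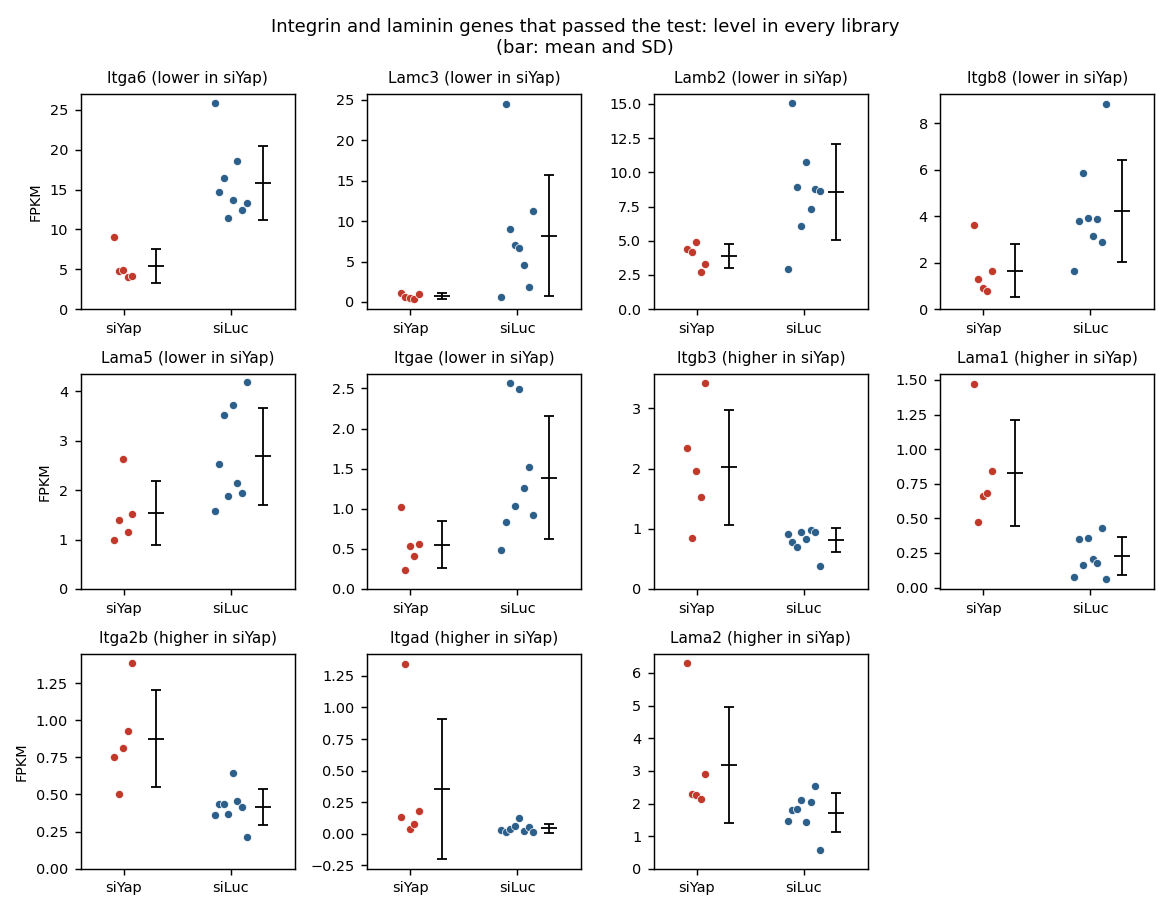
FPKM of the 11 called genes in every library, siYap (red) left of siLuc (blue), with the mean and SD as bars; the first 6 panels are genes lower and the last 5 genes higher in siYap. Itga6 and Lama1 show no overlap, Lamc3 has 1 high siLuc library at 24.5 FPKM, and Itgad has 1 high siYap library at 1.35 FPKM.

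Of the laminins described, Lamc3 had the largest fold change. Lamc3, a gamma chain of restricted distribution, was 11.5-fold lower in siYap by its mean (chromosome 2, 31887291 to 31946539, plus strand). Lamc1, the gamma chain of most laminins, did not pass the test. Lamc3 held 1.10, 0.581, 0.529, 0.331 and 1.03 FPKM in siYap replicates 1 to 5, against 0.610 to 24.5 FPKM (median 6.87) in siLuc. The siYap values lay close together, while those of siLuc spanned 40.2-fold. The means were 0.715 ± 0.335 FPKM in siYap and 8.19 ± 7.47 FPKM in siLuc (log2 fold change -3.31 ± 0.73, adjusted p = 0.00436, exact permutation p = 0.00699), and within the digits the differences were -2.15, -3.60 and -3.43 in digits 6, 7 and 8. An antisense gene covers 6.27% of the Lamc3 exon bases.

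Lamc1 averaged 7.23 ± 2.12 FPKM in siYap and 6.95 ± 1.96 FPKM in siLuc (log2 fold change 0.08 ± 0.20, adjusted p = 0.790). Among the epithelial laminin chains, Lama3 was low in both groups, at 0.530 ± 0.140 FPKM in siYap and 0.460 ± 0.160 FPKM in siLuc, and so was Lamb3, at 0.582 ± 0.105 FPKM in siYap and 0.548 ± 0.196 FPKM in siLuc, and neither passed (adjusted p = 0.459 and 0.827).

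The balance of Lamc1 and Lamc3 differed accordingly. Lamc1 took 85.2% to 95.1% of their summed FPKM in the siYap libraries (90.9 ± 3.99%, SD, n = 5) and 31.7% to 91.96% in the siLuc libraries (53.6 ± 21.5%, SD, n = 8). The sum of both was 5.37 to 10.7 FPKM in siYap and 7.59 to 35.9 FPKM in siLuc. The siLuc libraries were not alike. Replicates 1 and 2 share a number in their file names, yet replicate 2 had the highest Lamb2, Lamc1 and Lamc3 of the group (35.9 FPKM of Lamc1 and Lamc3), and replicate 1 had 7.59 FPKM, with the lowest siLuc values of Lamc3 and Lamb2. With 91.96% of that sum in Lamc1, siLuc replicate 1 lay within the siYap range. Without it, the Lamc3 log2 fold change was -3.49 (adjusted p = 0.00123).

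**Figure D4:**
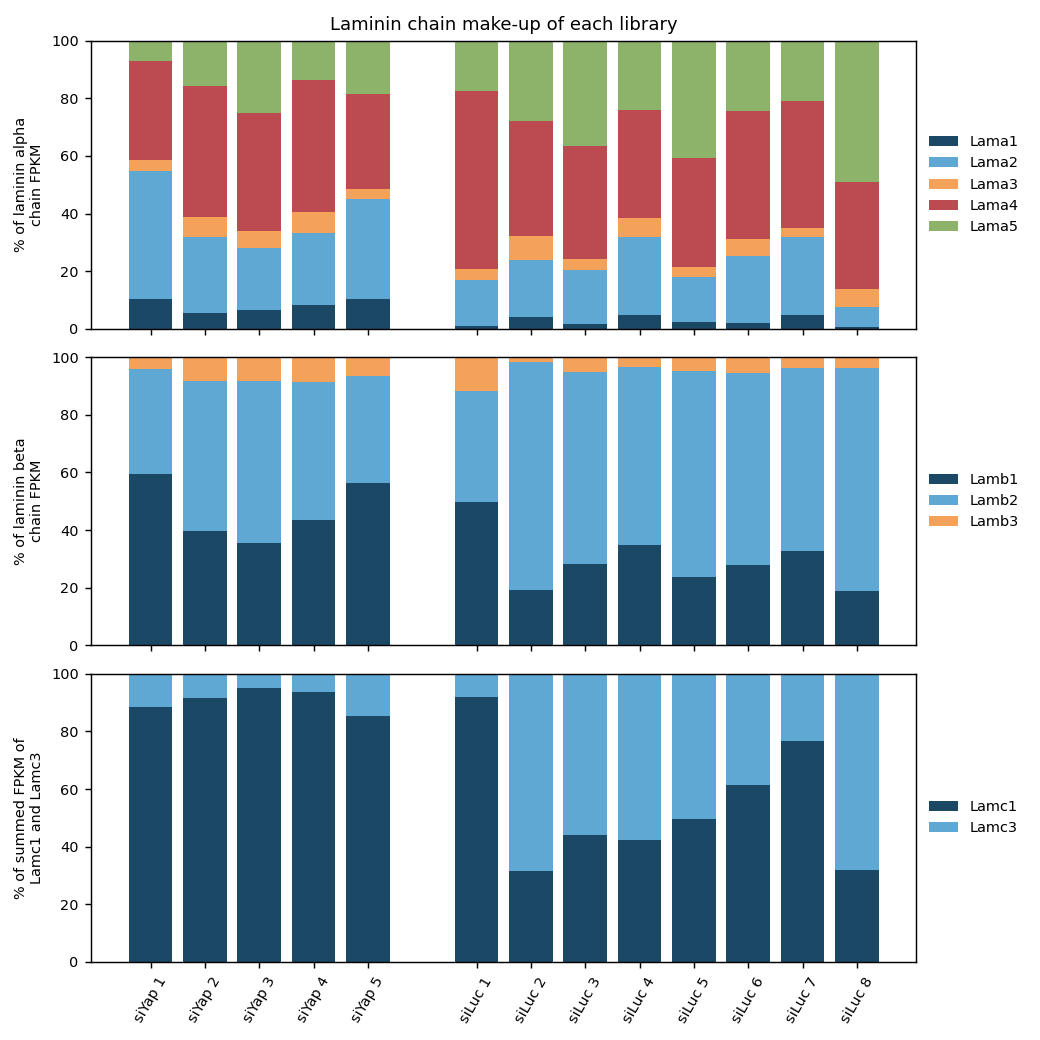
Share of laminin alpha (top) and beta (middle) chain FPKM taken by each gene in each library, and of the summed FPKM of Lamc1 and Lamc3 (bottom), as stacked bars that add to 100%, with the 5 siYap libraries left of the 8 siLuc libraries. In the bottom panel Lamc1 takes at least 85.2% in every siYap library, and at most 76.5% in the siLuc libraries other than replicate 1.

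Among the beta chains, Lamb2, the chain of glomerular, muscle and vascular basement membranes, was 2.20-fold lower in siYap (chromosome 9, 108479736 to 108490530, plus strand). It held 4.38, 4.17, 4.91, 2.69 and 3.31 FPKM in siYap replicates 1 to 5, and 2.90 to 15.1 FPKM (median 8.73) in siLuc. The siLuc replicate 1 lay within the siYap range and the other siLuc libraries lay above it. The means were 3.89 ± 0.884 FPKM in siYap and 8.57 ± 3.54 FPKM in siLuc (log2 fold change -1.07 ± 0.29, adjusted p = 0.0123, exact permutation p = 0.0132), with differences of -0.54, -1.20 and -1.37 in digits 6, 7 and 8. Lamb1, the more widely expressed beta chain, averaged 4.18 ± 1.90 FPKM in siYap and 3.48 ± 0.696 FPKM in siLuc and did not pass (log2 fold change 0.32 ± 0.26, adjusted p = 0.372). Lamb1 took 35.5% to 59.4% of beta chain FPKM in siYap and 18.8% to 49.6% in siLuc, and Lamb2 36.6% to 56.2% in siYap and 38.8% to 79.1% in siLuc.

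The alpha chains went both ways, and their summed level was 8.29 to 14.2 FPKM in siYap and 7.80 to 9.65 FPKM in siLuc. Lama5, the chief alpha chain of adult epithelial and vessel basement membranes, fell (chromosome 2, 180176373 to 180225859, minus strand). It held 0.982, 1.39, 2.63, 1.14 and 1.52 FPKM in siYap replicates 1 to 5, and 1.58 to 4.19 FPKM (median 2.33) in siLuc. The siYap replicate 3 lay among the siLuc libraries. The means were 1.53 ± 0.649 FPKM in siYap and 2.69 ± 0.985 FPKM in siLuc (log2 fold change -0.77 ± 0.26, adjusted p = 0.0342, exact permutation p = 0.0264), with differences of -0.66, -0.56 and -1.45 in digits 6, 7 and 8. Leaving out a single library ended the call for siYap replicates 1, 2, 4 and 5 and for siLuc replicates 3, 5 and 8 (edgeR adjusted p of 0.0591 to 0.0813). Its share of alpha chain FPKM was 6.93% to 25.3% in siYap and 17.5% to 48.9% in siLuc.

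Lama1, the alpha chain of the first embryonic basement membranes, rose, at low levels (chromosome 17, 67697259 to 67822647, plus strand). It stood at 1.47, 0.474, 0.664, 0.681 and 0.841 FPKM in siYap replicates 1 to 5, and 0.060 to 0.433 FPKM (median 0.189) in siLuc. Every siYap library was above every siLuc library, with 163 to 491 fragments in siYap and 25 to 142 in siLuc. The means were 0.826 ± 0.383 FPKM in siYap and 0.227 ± 0.138 FPKM in siLuc, 3.63-fold higher in siYap (log2 fold change 1.92 ± 0.44, adjusted p = 0.00463), and the differences within the digits were 2.39, 1.41 and 3.69 in digits 6, 7 and 8. It took 5.41% to 10.4% of alpha chain FPKM in siYap and 0.706% to 4.66% in siLuc. Lama2, the chain of muscle and nerve laminins, which stromal cells also make, was called higher (chromosome 10, 26980036 to 27619758, minus strand). It held 6.30, 2.31, 2.27, 2.14 and 2.91 FPKM in siYap replicates 1 to 5, and 0.575 to 2.54 FPKM (median 1.81) in siLuc. The groups overlapped, and siYap replicate 1 stood above the rest. The means were 3.18 ± 1.77 FPKM in siYap and 1.72 ± 0.587 FPKM in siLuc (log2 fold change 0.91 ± 0.32, adjusted p = 0.0454, exact permutation p = 0.0155). Without siYap replicate 1 the log2 fold change was 0.47 and the call ended (adjusted p = 0.213), as it did on leaving out siYap replicate 3 or 5 or any 1 of siLuc replicates 1 to 6 (0.0502 to 0.0731). Differences within the digits were 1.27, 0.15 and 2.34 in digits 6, 7 and 8. An antisense gene covers 3.86% of its exon bases. Lama4, the endothelial alpha chain, was at 3.95 ± 0.776 FPKM in siYap and 3.82 ± 0.806 FPKM in siLuc and did not pass (log2 fold change 0.06 ± 0.18, adjusted p = 0.831).

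Markers of bile duct, stromal and endothelial cells are given beside these values, to be read against 16.0% of all tested genes higher and 14.8% lower. Of 7 tested cholangiocyte markers 4 fell (Epcam, Sox9, Pkhd1 and Spp1) and 3 did not pass, with a summed level of 167 to 1149 FPKM in siYap and 1950 to 5091 FPKM in siLuc, and with Cldn4 at 0 in at least 1 library. Most of that sum was Spp1 alone, at 153 to 1130 FPKM in siYap and 1912 to 5012 FPKM in siLuc. Of 9 stellate cell and fibroblast markers 3 rose (Col1a1, Col1a2 and Lrat) and 6 did not pass, at a summed 169 to 659 FPKM in siYap and 59.7 to 293 FPKM in siLuc. Of 8 endothelial markers 3 rose (Tie1, Stab2 and Lyve1) and 5 did not pass, at a summed 50.5 to 119 FPKM in siYap and 43.7 to 112 FPKM in siLuc. No marker of the stellate and endothelial lists was at 0. Their part in the laminin and integrin values was not tested.

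The other components of basement membranes also split. In this list and the next 3, the counts stand beside 16.0% of all tested genes higher and 14.8% lower. Without siYap replicates 1 and 3 they stand beside 1512 of 15395 genes higher and 1472 lower. With counts summed per file-name number they stand beside 1901 of 15623 higher and 1892 lower. Of 23 tested basement membrane components, 3 rose, 7 fell and 13 did not pass, with a median log2 fold change of -0.03, against -0.00 for all genes. Hspg2, the proteoglycan perlecan, averaged 3.87 ± 1.55 FPKM in siYap, against 1.90 ± 0.423 FPKM in siLuc (log2 fold change 1.07 ± 0.23, adjusted p = 0.00298), with no overlap between the groups. Smoc1 and Hmcn1, a matricellular protein and a large fibulin, rose too (log2 fold change 0.77 ± 0.18, adjusted p = 0.00475; log2 fold change 1.28 ± 0.30, adjusted p = 0.00628). Without siYap replicates 1 and 3 these 3 calls ended (edgeR adjusted p of 0.0557 to 0.0982), which left 0 of the list higher in that fit, though 3 had an unadjusted p under 0.05. Ntn4, a netrin that binds laminin gamma chains, fell to 2.40 ± 0.973 FPKM in siYap, against 9.96 ± 6.57 FPKM in siLuc (log2 fold change -2.03 ± 0.42, adjusted p = 0.00282; no overlap between the groups). Col4a5, a type IV collagen chain, fell to 1.09 ± 0.545 FPKM in siYap, against 5.28 ± 2.70 FPKM in siLuc (log2 fold change -2.21 ± 0.46, adjusted p = 0.00310), and so did its partners Col4a3 and Col4a4. Smoc2, a relative of Smoc1, was at 3.73 ± 1.76 FPKM in siYap, against 21.03 ± 11.2 FPKM in siLuc (log2 fold change -2.37 ± 0.52, adjusted p = 0.00404), and Sparc and Npnt also fell.

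Inside the cell, of 34 tested genes of the integrin adhesion complex, 6 rose, 5 fell and 23 did not pass, with a median log2 fold change of 0.18. The tyrosine kinase Src fell to 1.46 ± 0.557 FPKM in siYap, against 4.38 ± 0.811 FPKM in siLuc (log2 fold change -1.56 ± 0.21, adjusted p = 8.88e-05). Lims1 and Rsu1, both parts of the Ilk complex, fell together. Lims1 averaged 22.9 ± 5.42 FPKM in siYap, against 47.5 ± 5.66 FPKM in siLuc (log2 fold change -1.08 ± 0.15, adjusted p = 0.000180) and Rsu1 23.5 ± 6.13 FPKM in siYap, against 41.9 ± 4.92 FPKM in siLuc (log2 fold change -0.82 ± 0.16, adjusted p = 0.00152), and for all 3 every siYap library lay below every siLuc library. Nedd9 and Sharpin fell as well. Sorbs3 (vinexin) rose to 7.87 ± 5.19 FPKM in siYap, against 2.25 ± 0.752 FPKM in siLuc (log2 fold change 1.88 ± 0.31, adjusted p = 0.000525), Fermt2 (kindlin-2, which activates integrins) to 51.9 ± 13.4 FPKM in siYap, against 30.1 ± 4.46 FPKM in siLuc (log2 fold change 0.78 ± 0.16, adjusted p = 0.00241) and Tln1 (talin) to 23.7 ± 8.24 FPKM in siYap, against 15.1 ± 3.54 FPKM in siLuc (log2 fold change 0.70 ± 0.19, adjusted p = 0.0109). Zyx, Parvb and Ptk2b rose too, and for Sorbs3 and Parvb every siYap library lay above every siLuc library. Without siYap replicates 1 and 3 the number that rose was 3, and Tln1 no longer passed (adjusted p = 0.147). The Sorbs3 log2 fold change was then 1.23 (adjusted p = 0.00542).

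Of 18 tested non-integrin laminin receptors and membrane partners of integrins, 6 rose, 6 fell and 6 did not pass (median log2 fold change -0.19). Cd151, the tetraspanin that binds the laminin-binding integrins Itga3 and Itga6, fell to 33.8 ± 11.5 FPKM in siYap, against 68.6 ± 12.4 FPKM in siLuc (log2 fold change -0.99 ± 0.17, adjusted p = 0.000789; no overlap between the groups), and the tetraspanin Cd63 to 28.7 ± 10.04 FPKM in siYap, against 67.7 ± 23.5 FPKM in siLuc (log2 fold change -1.20 ± 0.31, adjusted p = 0.00970). Itgbl1, a secreted protein with integrin beta-like repeats, fell to 1.56 ± 0.388 FPKM in siYap, against 5.34 ± 3 FPKM in siLuc (log2 fold change -1.70 ± 0.37, adjusted p = 0.00346; no overlap between the groups). Sdc1, Sdc2 and Cd81 fell too. Cd47, the partner of Itgav and Itgb3, rose to 74.4 ± 8.44 FPKM in siYap, against 44.2 ± 7.39 FPKM in siLuc (log2 fold change 0.74 ± 0.12, adjusted p = 0.000483), with every siYap library above every siLuc library. Utrn, a link of dystroglycan to actin, and Cd82 rose (log2 fold change 0.41 ± 0.12, adjusted p = 0.0216; log2 fold change 0.48 ± 0.16, adjusted p = 0.0295), as did Dag1 (dystroglycan), Plec and Dst. The call of Utrn ended without siYap replicate 1 (adjusted p = 0.0584) or 3 (0.0639), and that of Cd82 without siYap replicate 4 (0.0802) or 5 (0.0648). Without siYap replicates 1 and 3 together, 2 rose and 3 fell. With counts summed per file-name number, 3 fell and the call of Utrn ended (0.0665).

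Of 29 tested genes listed as integrin ligands, 6 rose, 9 fell and 14 did not pass (median log2 fold change -0.07). Mfge8, a ligand of Itgav integrins, fell to 19.6 ± 3.68 FPKM in siYap, against 67.5 ± 18.2 FPKM in siLuc (log2 fold change -1.75 ± 0.24, adjusted p = 0.000103), and the matricellular protein Cyr61, an established Yap target, to 8.14 ± 2.05 FPKM in siYap, against 19.4 ± 4.29 FPKM in siLuc (log2 fold change -1.26 ± 0.19, adjusted p = 0.000308). Tgfb2, listed as a relative of Tgfb1 rather than as an established ligand of Itgav, fell to 2.08 ± 0.511 FPKM in siYap, against 5.76 ± 1.57 FPKM in siLuc (log2 fold change -1.47 ± 0.20, adjusted p = 9.10e-05). Spp1, Cdh1 (the ligand of Itgae with Itgb7), Vtn, Fgb, Icam1 and Madcam1 fell as well. For Mfge8, Cyr61, Tgfb2 and Spp1 every siYap library lay below every siLuc library, as for 5.66% of all tested genes. Tgfb1, whose latent form binds Itgav with Itgb8 or Itgb6, rose to 1.996 ± 1.21 FPKM in siYap, against 0.577 ± 0.163 FPKM in siLuc (log2 fold change 1.80 ± 0.31, adjusted p = 0.000659), and its groups did not overlap. Col1a1 rose to 6.75 ± 4.62 FPKM in siYap, against 1.57 ± 0.746 FPKM in siLuc (log2 fold change 2.17 ± 0.49, adjusted p = 0.00473), and Vwf to 1.32 ± 0.437 FPKM in siYap, against 0.711 ± 0.284 FPKM in siLuc (log2 fold change 0.97 ± 0.28, adjusted p = 0.0170), and Col1a2, Col6a2 and Emilin1 rose too. Spp1, Fgb, Col1a1 and Col1a2 are also among the cell type markers above. Without siYap replicates 1 and 3 the number that rose was 1, with Col1a1 at a log2 fold change of 1.54 (adjusted p = 0.0565) and Vwf at an adjusted p of 0.104. With counts summed per file-name number, 3 rose. The call of Vwf also ended without siYap replicate 5 (0.0509).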

How the data were processed

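Tumour RNA libraries were made with a kit that removes ribosomal RNA and read on a HiSeq2500, per the labels' protocols. Trimmomatic 0.30, TopHat2 2.0.8, Cufflinks and Cuffdiff 2.1.1 with build mm10 are named in the submitters' processing notes. Which annotation and strand setting were used is not stated there. The authors deposited, per the file headers, unscaled estimated counts (raw fragments) and FPKM per gene for each library. Between 97.6% and 98.0% of the counts were within 1e-06 of a whole number. The replicate indices in the siYap tables (0, 1, 5, 6 and 7) have gaps, so the scaling behind FPKM may have used libraries not analysed here. Genes marked too deep to estimate (3) were left out. The series-wide FPKM table repeats the per-library FPKM and was not used.

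Estimated counts were rounded and tested with edgeR 4.0.16 (R 4.3.3; TMM, filterByExpr, robust quasi-likelihood F test, no covariates), siYap against siLuc over 13 libraries, adjusted by Benjamini-Hochberg over 15132 genes and called at 0.05. Each SE was taken as |log2 fold change| divided by the square root of F. The test was tried on simulated data for this comparison, over 15015 genes, where 53 of 100 genes changed by 1 and 95 of 100 changed by 2 on the log2 scale were recovered, with 9 false calls. Only these genes were changed, in independent simulated libraries, while 30.8% of tested genes were called in the real data. The recovery rates may therefore not carry over. Exact permutation tests (two-sided, unadjusted) used log2(FPKM + 0.1). They were planned for 13 genes and computed for all 35 members and for Yap1, Stk3 and Stk4. Differences within file code digits are of log2 CPM, with 4, 7 and 2 libraries in digits 6, 7 and 8, the last being 1 of each group. File names also carry a number shared by some libraries (3 numbers in siYap, 5 in siLuc). Every pair of libraries within a group differed by more than counting noise (chi-square over degrees of freedom at least 34.8). Coordinates and exon overlaps are from GENCODE M21 on GRCm38, the assembly of mm10.

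The members and gene lists were chosen with earlier results of these data known. Described in full were called members whose mean reached 1 FPKM in a group, and the 4 highest members not called, and from each list up to 3 called genes per direction with the smallest p and at least 1 FPKM. Itga2b, Itgad and Lama1, under 1 FPKM, are given in full outside this rule, and so are other members whose means are printed. A gene of these families is not reported here and enters none of the member counts, chain shares and figures. The integrin pairs were listed after values were seen. Alternatives were DESeq2 1.42.0 size factors and Wald test, upper-quartile scaling, filtering by a mean count of 50 or not at all, limma 3.58.1 on FPKM (log2, pseudocount 1 or 0.1, genes reaching 1 FPKM in 5 libraries), leaving out each library, siYap replicates 1 and 3 left out, counts summed per file-name number, the file code digit as a term, the replicate number as a block, an adjusted p under 0.01, and a log2 fold change of at least 1.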

Additional observations from a re-analysis of the deposited data

Results flagged for a closer look

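In 72 groups examined (35 genes and Yap1 in each treatment), 12 had 1 library whose gap to the next was a larger part of the range than Dixon's 95% critical value (0.71 for 5 libraries and 0.526 for 8). Chance flags about 1 in 20 groups, and these genes share the libraries. In siYap tumours, replicate 1 was far above the others for Itga6 (9.06 FPKM, against 4.06 to 4.91) and Lama2 (6.30 FPKM, against 2.14 to 2.91). Replicate 2 was far above the others for Itgad (1.35 FPKM, against 0.041 to 0.182). Replicate 3 was low for Itgb1 (84.6 FPKM, against 101.3 to 108.0) and replicate 5 for Lama3 (0.282 FPKM, against 0.565 to 0.606).

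In siLuc tumours, replicate 2 accounted for 4 of the 7 cases. It was high for Lamc3 (24.5 FPKM, against 0.610 to 11.3), Lamc1 (11.4 FPKM, against 5.22 to 7.31), Itga9 (11.7 FPKM, against 4.20 to 7.17) and Itga10 (0.296 FPKM, against 0.093 to 0.170). Replicate 1 was high for Lama4 (5.57 FPKM, against 2.91 to 4.12), replicate 5 for Itgad (0.125 FPKM, against 0.012 to 0.058) and replicate 8 for Itga7 (8.81 FPKM, against 2.06 to 4.42).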

How the results depend on the processing

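The fit of all genes called 4668, and of the 35 genes 5 were higher and 6 lower. Leaving out 1 library at a time gave 3325 to 4633 genes called, 3 to 8 members higher and 3 to 7 lower. Leaving out siYap replicates 1 and 3 together gave 2984 genes called. At an adjusted p under 0.01, 2362 genes were called and 2 members were lower, and with a log2 fold change of at least 1, 1992 genes were called. Limma tested 25 of the 35 members and called 0 higher on both log2(FPKM + 1) and log2(FPKM + 0.1). In these 2 fits, 2 and 1 members were higher at an unadjusted limma p under 0.05. Over all genes, limma called 1728 and 1705 of 12239 higher. The edgeR fit called 5 members and 2422 of 15132 genes higher, and 4 of those 5 were not tested by limma because of the filter on FPKM. DESeq2's Wald test called 6 members and 2670 of 15132 genes higher.

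Libraries with the same replicate number did not deviate together (correlations of -0.12 to 0.127). Of these, 2 of 5 siYap and 2 of 5 siLuc libraries correlated best with their own number. So few values cannot show whether they share more than a number. Replicates 1 and 2 of both groups also share file code digit 6, and replicates 3 and 4 digit 7. With the replicate block on replicates 1 to 5 of each group, 2298 genes were called, with 2 members higher and 2 lower.

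The 40 genes tracked singly gave 948 values under the alternatives, none with another sign. Of these, 872 kept their side of the threshold, 69 missed it where the fit of all libraries had passed, and 7, all of Itgav, passed it where that fit had missed. The number of list genes called ran from 3 to 9 higher and 4 to 5 lower for the adhesion complex (6 and 5 with all libraries), 0 to 5 and 3 to 7 for basement membrane components (3 and 7), 1 to 7 and 3 to 6 for laminin receptors and partners (6 and 6), and 1 to 7 and 6 to 11 for ligands (6 and 9). Itgad (2 to 187 fragments), Lama1 (25 to 491) and Itga2b (31 to 157) rest on few fragments, which limits their precision.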
